A study of Mus musculus with 28 samples.

Results

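The 10 transcripts described here mark microglia, the resident macrophages of the brain, and encode C1q, the protein that starts the classical complement pathway. They are the receptor genes Cx3cr1, P2ry12, Csf1r and Trem2, the membrane protein gene Tmem119, the C1q chain genes C1qa, C1qb and C1qc, and the genes Aif1 and Lyz2. They were taken by name from the expression tables, as 10 of the 23038 genes listed, and all 10 passed the filter on low counts in every fit. RNA was measured in 28 libraries: 6 Nova1hu/hu and 6 Nova1wt/wt of midbrain from E18.5 embryos, 4 and 4 of midbrain from pups at P21 (postnatal day 21), and 4 and 4 of cortex from the latter age. All mice had a BL6 background. The Nova1hu/hu mice carry, in every cell and on both alleles, a CRISPR-made isoleucine-to-valine change that gives NOVA1, a neuronal RNA-binding protein, its human form, together with silent base changes. The allele was made in C57BL6 zygotes and backcrossed to C57BL/6J, and the Nova1wt/wt mice carry the mouse allele; no other allele or agent was given to either group. The labels do not say whether a library is 1 animal, or whether P21 midbrain and P21 cortex came from the same animals, so p-values measure the spread between these libraries.

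As background, microglia enter the brain in the embryo, multiply there and take on their mature pattern of expression around and after birth. Their survival depends on CSF1R, the receptor for the ligands CSF1 and IL34, while CX3CR1 receives the neuronal ligand CX3CL1, P2RY12 senses nucleotides released by cells, and TREM2 binds lipids and signals through the adaptor TYROBP. C1q is assembled from A, B and C chains, is made in the brain mainly by microglia, and can tag synapses for removal. AIF1, also known as IBA1, is an actin-binding protein used to stain microglia, TMEM119 is a membrane protein used to tell microglia from other macrophages, and LYZ2 is a lysozyme also found in other macrophages and in granulocytes.

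Total counts per library ranged from 18550922 to 35047494 at E18.5, from 25256326 to 45134998 in P21 midbrain and from 30423267 to 35643736 in P21 cortex. The member with the fewest counts in any library was Aif1, with 12 in E18.5 midbrain, and the member with the most was Csf1r, with 7089 in P21 cortex. Region labels held in the data: at P21 all 7 cortex marker genes tested were higher in cortex and all 8 midbrain marker genes were higher in midbrain. The edited codon cannot be read from counts per gene, so the genotype labels were not checked. Levels are given as TPM, the count of a gene per exon length, scaled to the same total in each library, so that genes can be compared with each other. In whole tissue, fewer cells of a type and less RNA per cell cannot be told apart.

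The C1q chain genes lie side by side on chromosome 4 of GRCm38, all on the minus strand, in a span of 18.7 kb from 136880126 to 136898844 that holds C1qb, C1qc and C1qa and no other RefSeq gene. RefSeq entries for the bases before the start site were found for 7 of the 10 members, and not for C1qa, Tmem119 or Csf1r. The hexamer GAGGAA, a core that the myeloid factor PU.1 (gene Spi1) is known to bind, was searched on both strands of the 250 bases before each start site. It occurred in 4 of these 7 members, Trem2, C1qb, C1qc and Aif1, against 23.3% of 32817 RefSeq promoters. The Aif1 and C1qc windows reach into the annotated spans of their genes. The Aif1 hexamer lies within the span of its gene, and the C1qc hexamer lies before that of C1qc. The composite GGAANNGAA, known to bind PU.1 with an IRF factor, occurred in 0 of 7 against 6.99% of promoters, and the TATA sequence TATAAA in 0 of 7 against 12.4%. The sequences before C1qb (chr4:136886201-136886450, minus strand) and C1qc (chr4:136893066-136893164, minus strand) are shown because these neighbouring genes hold the hexamer. Both rose with age and were higher in cortex, but so were Cx3cr1 and P2ry12, where the hexamer was not found. They come from RefSeq (GRCm38.p6) and read 5′ to 3′ on the gene's strand, with GAGGAA or its reverse complement in capitals. The C1qc stretch stops where a GENCODE transcript of the gene begins.
C1qb: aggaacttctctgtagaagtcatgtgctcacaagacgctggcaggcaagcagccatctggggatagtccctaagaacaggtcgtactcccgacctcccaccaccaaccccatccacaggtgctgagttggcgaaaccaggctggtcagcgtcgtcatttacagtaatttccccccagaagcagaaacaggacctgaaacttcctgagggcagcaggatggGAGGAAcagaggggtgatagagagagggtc
C1qc: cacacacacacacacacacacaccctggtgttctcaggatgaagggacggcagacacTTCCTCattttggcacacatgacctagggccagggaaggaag

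From E18.5 to P21 all 10 genes rose in midbrain, 8 of them at least 2-fold. Genes called higher at P21 were 42.6% of the 16805 genes tested, and 16.3% were called and at least 2-fold higher. The median log2 fold change of the 10 genes was 1.65, against a median near 0 (−0.0011) over all genes tested. Changes ranged from 3.10 for Tmem119 to 0.53 for Lyz2 on the log2 scale. The calls are from edgeR's quasi-likelihood test, with thresholds of 0.05 for p and 0.1 for p adjusted by Benjamini-Hochberg over all genes tested, and the fold changes are relative to edgeR's TMM scaling. With library totals alone as the scale the median of all genes moved to −0.17, and all 10 genes were still called higher.

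**Figure D1:**
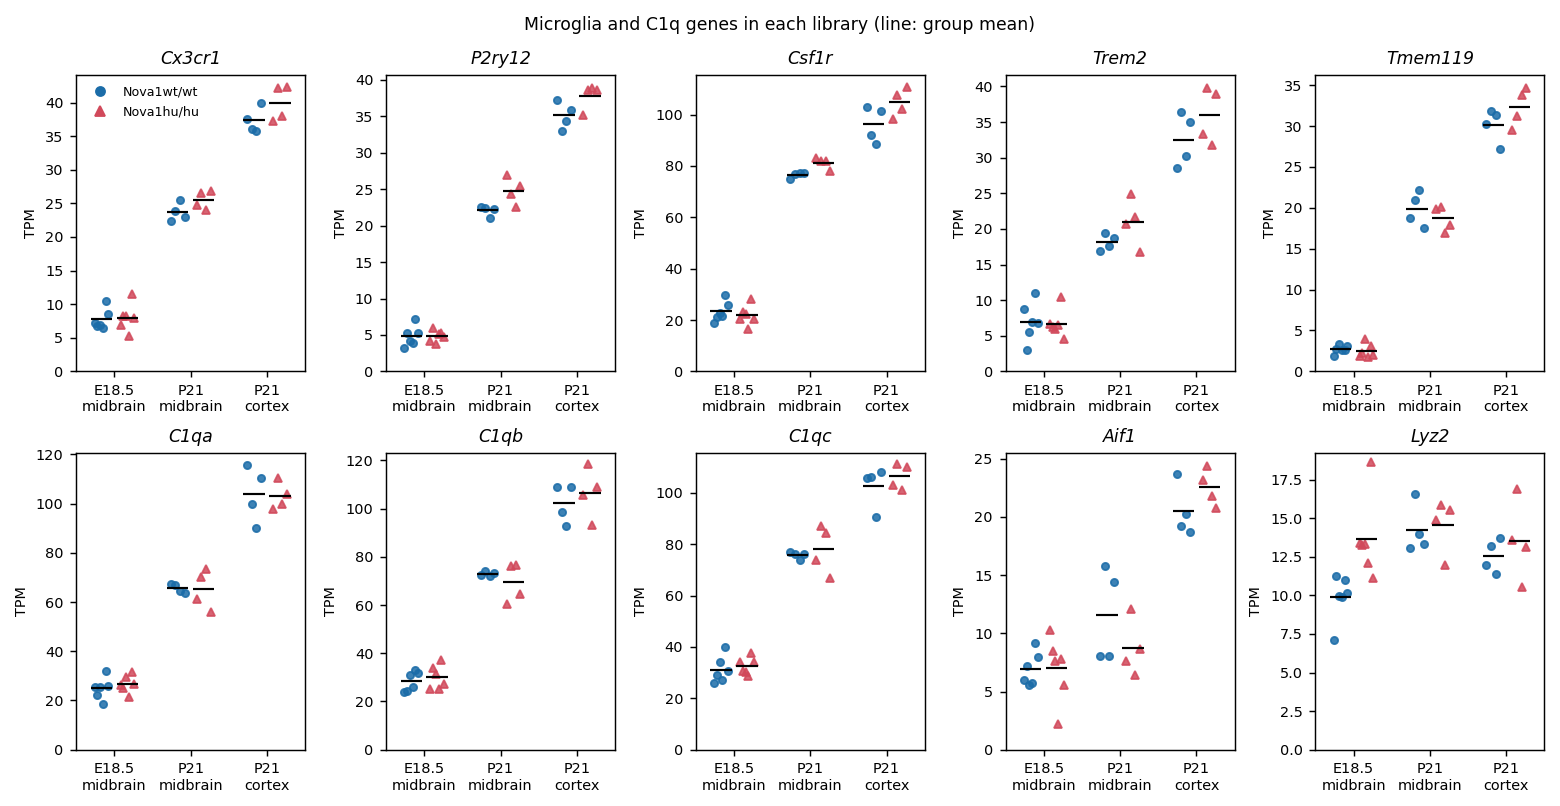
TPM of each of the 10 genes in the 28 libraries (circles, Nova1wt/wt; triangles, Nova1hu/hu; lines, group means), with a linear axis from 0 in each panel. For 8 genes every P21 midbrain library lies above every E18.5 library, while the Lyz2 groups overlap at all ages and regions.

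Among the receptors, P2ry12 rose most with age. P2ry12 (chromosome 3, 59216271 to 59262985, GRCm38, exon length 2338 nt) was at 3.14 to 7.13 TPM in the 12 E18.5 libraries (median 4.93) and at 21.1 to 27.0 TPM in the 8 P21 midbrain libraries (median 22.6). Its groups did not overlap, and its log2 fold change was 2.49 (SE 0.084, 95% confidence interval 2.32 to 2.66, adjusted p = 5.8e-23 by edgeR's quasi-likelihood test). Csf1r (chromosome 18, 61105572 to 61131139), the receptor gene with the highest mean at each age and in each region, was at 16.6 to 29.8 TPM at E18.5 (median 22.0) and at 75.0 to 83.1 TPM in P21 midbrain (median 77.7). Every P21 library was again above every E18.5 library, with a log2 fold change of 2.02 (SE 0.062). Cx3cr1 (chromosome 9, 120048683 to 120068296) was at 5.30 to 11.4 TPM at E18.5 (median 7.58) and 22.4 to 26.8 TPM at P21 (median 24.4), a log2 fold change of 1.86 (SE 0.080) with no overlap. Trem2 (chromosome 17, 48346401 to 48352276) had the widest relative spread of the receptor genes before birth, from 3.0 to 11 TPM (median 6.57), and was at 16.8 to 24.9 TPM at P21 (median 19.1). Its log2 fold change of 1.74 (SE 0.14) was still called, and its groups did not overlap. Exons of Cx3cr1, P2ry12 and Csf1r overlap Gm33858, Med12l and Hmgxb3 on the opposite strand, and the counting is not stated to use strand, so reads of these partners cannot be told apart from theirs there.

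Tmem119 (chromosome 5, 113793729 to 113800396) had the lowest level of the 10 genes at E18.5 and the largest change. It was at 1.75 to 3.95 TPM at E18.5 (median 2.56), from 23 to 57 counts per library, and at 17.0 to 22.1 TPM in P21 midbrain (median 19.3). The groups were far apart, at a 7.41-fold ratio of mean TPM, and the log2 fold change was 3.10 (SE 0.093, 95% confidence interval 2.91 to 3.29, adjusted p = 2.7e-24 by edgeR's quasi-likelihood test).

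The log2 fold changes of the C1q chain genes were smaller than those of the receptor genes and close to each other. C1qa was at 18.7 to 31.8 TPM at E18.5 (median 25.9) and at 56.1 to 73.4 TPM in P21 midbrain (median 65.6). C1qb was at 24.1 to 37.4 TPM (median 29.2) and 60.4 to 76.7 TPM (median 73.0), and C1qc was at 25.9 to 40.1 TPM (median 30.7) and 66.9 to 86.9 TPM (median 76.1). No chain's P21 libraries overlapped its E18.5 libraries. The log2 fold changes were 1.55 (SE 0.071) for C1qa, 1.5 (SE 0.069) for C1qb and 1.48 (SE 0.064) for C1qc.

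Aif1 and Lyz2 changed least, and their groups overlapped. Aif1 (chromosome 17, 35170986 to 35176083) was at 2.22 to 10.3 TPM at E18.5 (median 7.39) and 6.45 to 15.8 TPM in P21 midbrain (median 8.37), with a log2 fold change of 0.77 (SE 0.17, adjusted p = 9.9e-05 by edgeR's quasi-likelihood test). Lyz2 (chromosome 10, 117277541 to 117282272) was at 7.10 to 18.7 TPM at E18.5 (median 11.2) and 12 to 16.6 TPM in P21 midbrain (median 14.4), with a log2 fold change of 0.53 (SE 0.095, adjusted p = 7.2e-06 by edgeR). Its highest E18.5 library was above every P21 midbrain library. As log2 ratios of mean TPM the rises were smaller, 0.54 for Aif1 and 0.29 for Lyz2, and the median of all genes was −0.22 on that scale. Across genes, all P21 libraries above all E18.5 libraries was seen in 22.7% of those tested. Within genotypes Lyz2 rose by 0.31 on the log2 scale in Nova1hu/hu and by 0.72 in Nova1wt/wt, and Aif1 by 0.55 and 0.95.

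**Figure D2:**
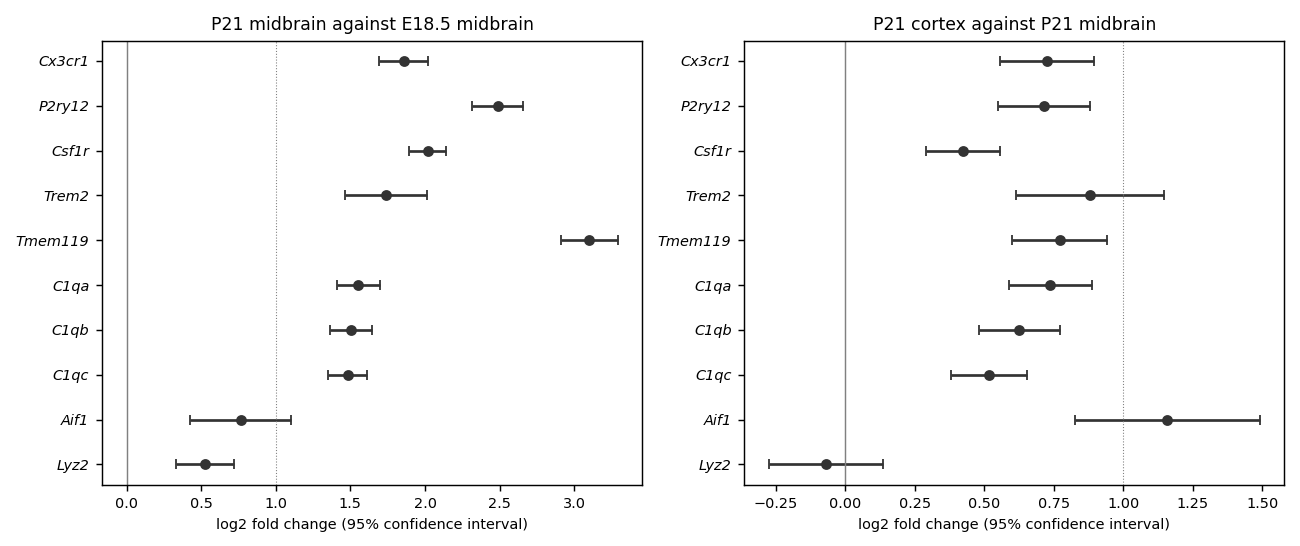
Log2 fold changes with 95% confidence intervals from edgeR, for P21 midbrain against E18.5 midbrain (left) and P21 cortex against P21 midbrain (right); the solid line is no change and the dotted line a 2-fold change. Tmem119 leads with age at 3.10 and Lyz2 is lowest in both panels, at 0.53 and −0.07.

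At P21, 9 of the 10 genes were higher in cortex than in midbrain, and Lyz2 did not differ by the test. Genes called higher in cortex were 35.4% of the 16805 tested. The median log2 fold change of the 10 genes, cortex against midbrain, was 0.72, and over all genes tested it was −0.0038. The 9 genes had no overlap between the 8 cortex and 8 midbrain libraries, which was so for 18.7% of all genes tested in that direction. Aif1, among the least changed with age, had the largest difference between regions over both genotypes. Within genotypes, midbrain against cortex, the log2 fold change of Aif1 was −0.86 in Nova1wt/wt and −1.41 in Nova1hu/hu, and that of Trem2 was −0.89 and −0.82, so Trem2 was ahead of Aif1 in Nova1wt/wt.

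Aif1 was at 18.7 to 24.4 TPM in cortex (median 21.3) against 6.45 to 15.8 TPM in midbrain, and its log2 fold change was 1.16 (SE 0.16, 95% confidence interval 0.83 to 1.49, adjusted p = 1.9e-07 by edgeR's quasi-likelihood test). All cortex libraries were above all midbrain libraries. Of the receptor genes, Trem2 was at 28.5 to 39.8 TPM in cortex (median 34.2), 0.88 (SE 0.13) higher on the log2 scale. Cx3cr1 was at 35.7 to 42.3 TPM in cortex (median 37.8) and P2ry12 at 33.1 to 39.0 TPM (median 36.6), which were higher by 0.73 (SE 0.082) and 0.71 (SE 0.081). Csf1r was at 88.7 to 110.9 TPM in cortex (median 101.6) and had the smallest difference called, 0.42 (SE 0.066). Tmem119 was at 27.2 to 34.7 TPM in cortex (median 31.3), higher by 0.77 (SE 0.084).

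The C1q chain genes reached the highest levels of the 10 genes in cortex. Cortex levels were 90.3 to 115.8 TPM for C1qa (median 101.9), 92.6 to 118.5 TPM for C1qb (median 107.4) and 90.4 to 111.3 TPM for C1qc (median 105.9). The differences from midbrain were 0.74 (SE 0.073), 0.63 (SE 0.072) and 0.52 (SE 0.067) on the log2 scale, and each chain's regions were apart. Lyz2 was at 10.5 to 16.9 TPM in cortex (median 13.2), overlapping with midbrain, and its log2 fold change, cortex against midbrain, was −0.07 (SE 0.10, 95% confidence interval −0.28 to 0.14, adjusted p = 0.55 by edgeR's quasi-likelihood test). The regions differed in other cells as well: the summed TPM of 8 oligodendrocyte genes was 22800 to 25550 in P21 midbrain and 6798 to 7626 in cortex, and at E18.5 it was 123.9 to 163.8 with Opalin at 0. Their part in the member differences was not tested.

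The order of the 10 genes by mean TPM changed with age and region. At E18.5 it was C1qc (31.9), C1qb (29.2), C1qa (25.9), Csf1r (22.6), Lyz2 (11.8), Cx3cr1 (7.87), Aif1 (6.96), Trem2 (6.85), P2ry12 (4.83) and Tmem119 (2.60). The library range of each gene overlapped that of its neighbour in this order. In P21 midbrain Csf1r led with 78.9 TPM, followed by C1qc (76.8), C1qb (71.3), C1qa (65.4), Cx3cr1 (24.6), P2ry12 (23.5), Trem2 (19.6), Tmem119 (19.3), Lyz2 (14.4) and Aif1 (10.1). The group led by Csf1r and the C1q genes, at 56.1 TPM or more, was separated there from the others, at 27.0 TPM or less, and Tmem119, from 17.0 TPM, from Lyz2, up to 16.6 TPM. In P21 cortex C1qc, C1qb, C1qa and Csf1r had mean levels from 100.5 to 104.5 TPM with overlapping ranges, followed by Cx3cr1 (38.6), P2ry12 (36.5), Trem2 (34.3), Tmem119 (31.2), Aif1 (21.5) and Lyz2 (13.1). Ranges there did not overlap between Csf1r and Cx3cr1, between Tmem119 and Aif1 or between Aif1 and Lyz2. Lyz2 was above Cx3cr1 in the order at E18.5, where their ranges overlapped, and the lowest of the 10 in cortex. The summed TPM of the 10 genes was 124.7 to 191.2 at E18.5 (median 149.2), 376.9 to 439.4 in P21 midbrain (median 397.7) and 525.4 to 640.9 in P21 cortex (median 588.0).

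Because the C1q protein takes up its A, B and C chains in equal numbers, the balance of the chain transcripts within a library was compared, which does not depend on scaling between libraries. C1qa, C1qb and C1qc held 29.7% ± 2.12, 33.6% ± 2.52 and 36.7% ± 2.27 (SD, n = 12) at E18.5, 30.6% ± 0.608, 33.4% ± 1.24 and 36.0% ± 0.970 (SD, n = 8) in P21 midbrain, and 33.1% ± 1.04, 33.4% ± 1.06 and 33.5% ± 0.934 (SD, n = 8) in P21 cortex. With age, none of the 3 chain ratios differed by the test (two-sided exact permutation test over libraries, Benjamini-Hochberg adjusted over 6 ratio tests, adjusted p = 0.34 to 0.76). Between regions the C1qa to C1qc ratio was higher in cortex by 0.22 on the log2 scale, at −0.02 ± 0.072 (SD, n = 8) against −0.23 ± 0.044 in midbrain (exact permutation p = 0.000155, the smallest this design can give; adjusted p = 0.00093), and the libraries of the regions did not overlap. That ratio stayed past the threshold when any 1 library was left out. Within a library each chain ratio follows from the others, so the calls between regions are not independent of each other. The permutations, here and for the ratios to Cx3cr1, treated libraries as independent, although same-numbered Nova1hu/hu and Nova1wt/wt libraries varied together. The other regional ratios were less firm: C1qa to C1qb was higher in cortex by 0.11 and C1qc to C1qb lower there by 0.11 on the log2 scale (adjusted p = 0.040 each, exact permutation test), and they missed adjusted p = 0.05 when any of 10 and any of 12 of the 16 libraries were left out, with adjusted p up to 0.077 and 0.084.

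**Figure D3:**
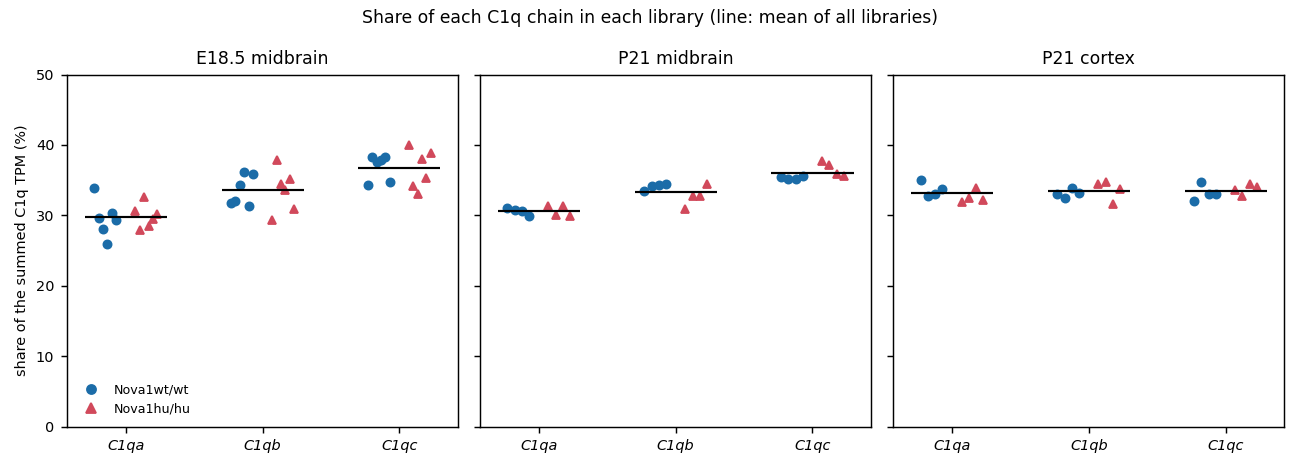
Share of each C1q chain gene in the summed TPM of the chains (percent, axis from 0), per library, for the 3 sets of libraries; lines are means over both genotypes. In midbrain C1qa is lowest and C1qc highest on average, at 30.6% and 36.0% at P21, and in cortex all means lie between 33.1% and 33.5%.

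Relative to Cx3cr1 in the same library, the other 9 genes were compared in the same way (exact permutation tests, adjusted over 18 ratio tests). With age Tmem119 rose by 1.26 more than Cx3cr1 on the log2 scale (adjusted p = 7.1e-05, permutation) and P2ry12 by 0.64 more (adjusted p = 0.00047, permutation). Lyz2 and Aif1 fell behind, with changes of −1.35 and −1.11 relative to Cx3cr1, and so did C1qa, C1qb and C1qc, with −0.32, −0.37 and −0.40. Csf1r gained 0.15 (adjusted p = 0.034, permutation), a call lost without any of 9 of the 20 libraries (adjusted p up to 0.064), and Trem2 moved by −0.09 (SD of the log2 ratio 0.44 at E18.5), not past the threshold. Between cortex and midbrain, the Lyz2 ratio was lower in cortex by −0.80 and the Csf1r ratio by −0.30, without overlap, and the C1qc ratio by −0.20. Aif1 was higher relative to Cx3cr1 by 0.50, a call lost without any of 5 libraries (adjusted p up to 0.059, permutation). For P2ry12, Tmem119, C1qa and C1qb the difference between regions did not pass the test, with values from −0.10 to 0.05. The Trem2 difference of 0.16 did not pass either, but it passed without cortex Nova1wt/wt number 1 (0.19, adjusted p = 0.043, permutation) or without midbrain Nova1hu/hu number 2 (0.19, adjusted p = 0.035, permutation).

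Nova1hu/hu was set against Nova1wt/wt in each of the 3 sets of libraries, the question of the study being what the human form of NOVA1 changes. None of the 10 genes was called between Nova1hu/hu and Nova1wt/wt mice at E18.5 (0% of 15540 genes called), in midbrain at P21 (0% of 15972) or in cortex (0% of 15767), by edgeR's quasi-likelihood test. At an unadjusted p under 0.05 there were 1, 2 and 1 of the 10 genes, among 201, 426 and 450 of all genes. DESeq2 called 0, 1 and 0 genes, edgeR's likelihood ratio test 0, 1 and 0, the quasi-likelihood fit with the replicate number as a block 0, 4 and 0, and the likelihood ratio test with that block 1, 13 and 5, none of them a member. Fitted log2 fold changes of Nova1hu/hu against Nova1wt/wt were above 0 for 6, 6 and 9 of the 10 genes, with medians of 0.02, 0.04 and 0.11 against −0.00062, −0.00010 and −0.00071 over all genes.

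**Figure D4:**
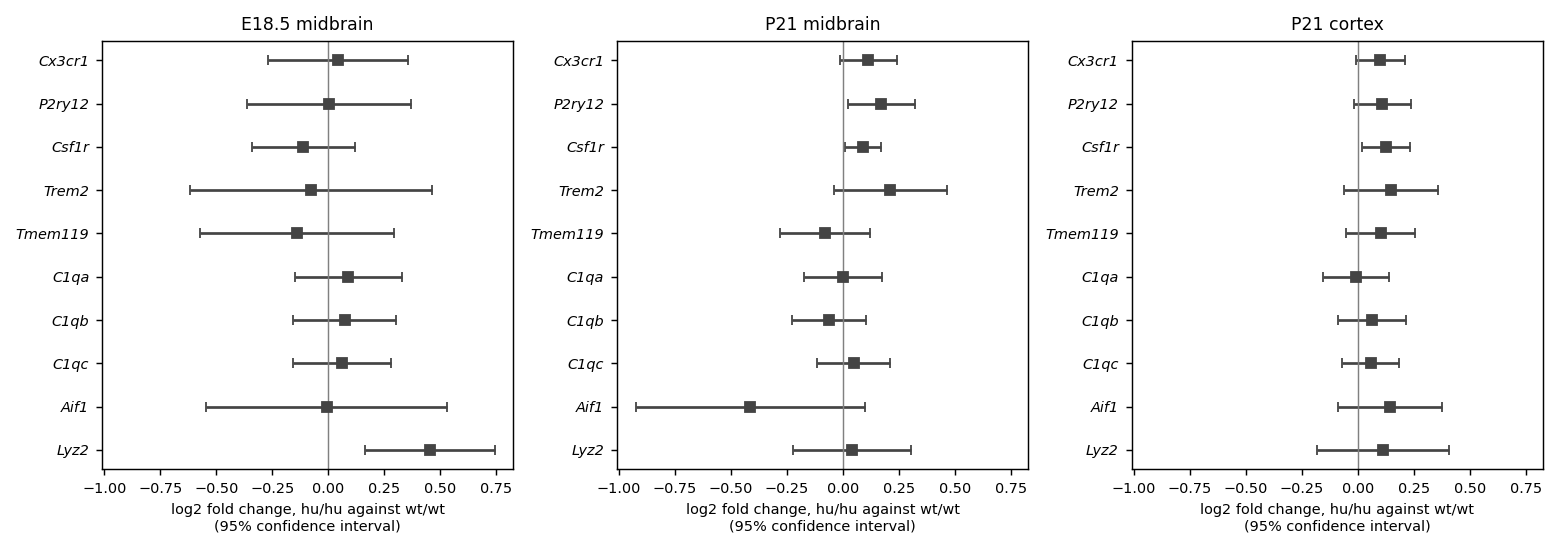
Log2 fold changes of Nova1hu/hu against Nova1wt/wt with 95% confidence intervals from edgeR for the 10 genes, by age and region; the vertical line is no change. The interval for Lyz2 at E18.5 (0.16 to 0.74) lies above 0. So do those of P2ry12 in P21 midbrain (0.02 to 0.32) and of Csf1r in P21 midbrain (0.0078 to 0.17) and cortex (0.02 to 0.23). The interval of Aif1 in midbrain is the widest at P21.

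The largest genotype difference was that of Lyz2 at E18.5. Lyz2 was at 11.1 to 18.7 TPM in the 6 Nova1hu/hu libraries (median 13.3) and at 7.10 to 11.2 TPM in the 6 Nova1wt/wt libraries (median 10.02). The highest Nova1wt/wt library was just above the lowest Nova1hu/hu library, and Nova1hu/hu was higher in 6 of 6 replicate numbers. How often this happens among all genes was not counted. The log2 fold change was 0.45 (SE 0.14), with an unadjusted p of 0.0041 and an adjusted p of 1.0 by edgeR's quasi-likelihood test, and an exact permutation test of log2 TPM gave p = 0.0043 where 0.0022 is the smallest possible. Over the alternatives tried, its adjusted p was 0.42 to 1.0. At P21 the difference was 0.04 (SE 0.12) in midbrain and 0.11 (SE 0.14) in cortex, and the test of the difference between ages gave −0.41 (SE 0.19, unadjusted p = 0.040, adjusted p = 1.0, edgeR). No member was called in that interaction test (0% of 16805 genes called, 377 at an unadjusted p under 0.05, 1 of them a member) or in the one between regions (0% of 16805, 278, 0 of them members).

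Other cells that express Lyz2 were looked at beside this difference. The summed TPM of 17 monocyte and granulocyte genes at E18.5 was 12.6 to 27.0 in Nova1hu/hu (median 19.7) and 12.2 to 24.3 in Nova1wt/wt (median 17.3), and that of 12 perivascular and meningeal macrophage genes was 72.5 to 116.0 (median 96.4) and 81.0 to 106.9 (median 89.4). Both lists overlapped between genotypes, none of their genes was at 0 in all libraries of either group, and their part in the Lyz2 difference was not tested. Lyz1, a near-identical neighbour of Lyz2 that can share its reads, was listed at a mean of 0.182 TPM at E18.5, so the split of counts between these paralogs is uncertain.

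No receptor gene passed the test between genotypes at P21, and the fitted log2 fold changes of all 4 were above 0 in both regions. They were 0.11 (SE 0.060) and 0.10 (SE 0.052) for Cx3cr1 in midbrain and cortex, and 0.21 (SE 0.12) and 0.15 (SE 0.098) for Trem2. Csf1r in both regions and P2ry12 in midbrain were the ones with an unadjusted p under 0.05. In midbrain Csf1r was at 83.1, 81.8, 81.8 and 78.0 TPM in Nova1hu/hu and 75.0, 77.0, 77.3 and 77.1 TPM in Nova1wt/wt. These groups did not overlap, which was so for 1.96% of genes in that comparison, and the log2 fold change was 0.09 (SE 0.038, unadjusted p = 0.034, adjusted p = 1.0 by edgeR; exact permutation p = 0.029, the smallest possible). In cortex Csf1r was at 98.3, 107.7, 102.0 and 110.9 TPM in Nova1hu/hu and at 103.1, 91.9, 88.7 and 101.2 TPM in Nova1wt/wt, with overlap, and its log2 fold change was 0.13 (SE 0.051, unadjusted p = 0.025 by edgeR). P2ry12 in midbrain was at 27.0, 24.3, 22.5 and 25.4 TPM against 22.6, 22.4, 21.1 and 22.3 TPM, where only the lowest Nova1hu/hu library was below the highest Nova1wt/wt library, with a log2 fold change of 0.17 (SE 0.070, unadjusted p = 0.027 by edgeR), and in cortex that was 0.11 (SE 0.059). At E18.5 the same receptors differed by −0.11 (SE 0.11) for Csf1r and 0.0035 (SE 0.17) for P2ry12.

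The C1q chain genes were close between genotypes. The log2 fold changes of C1qa, C1qb and C1qc were 0.09, 0.07 and 0.06 at E18.5. At P21 they were −0.00047, −0.06 and 0.05 in midbrain, and in cortex they were −0.0094, 0.06 and 0.06. Their 95% confidence intervals reached from −0.16 to 0.33 at E18.5 and from −0.23 to 0.22 at P21, so differences up to these sizes could go undetected. Aif1 in P21 midbrain had the lowest value, −0.41 (SE 0.24, 95% confidence interval −0.93 to 0.10), with 7.59, 12.1, 6.45 and 8.66 TPM in Nova1hu/hu and 8.08, 15.8, 8.04 and 14.4 TPM in Nova1wt/wt. The Nova1wt/wt libraries fell into a high and a low pair, and the Nova1hu/hu library was lower in 4 of 4 replicate numbers. For P2ry12 and Csf1r in P21 midbrain and Trem2 in cortex Nova1hu/hu was higher in 4 of 4. The share of all genes with such agreement was not counted. The Aif1 value ran from −0.63 without Nova1hu/hu number 2 to −0.23 without Nova1wt/wt number 2. Trem2 in P21 midbrain was at 16.8 to 24.9 TPM in Nova1hu/hu and 16.9 to 19.5 TPM in Nova1wt/wt, and its log2 fold change ran from 0.11 without Nova1hu/hu number 2 to 0.31 without Nova1hu/hu number 4.

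Within each age and region, the members were also compared library by library, with Pearson's r of log2 TPM for each of 45 pairs of genes over both genotypes. The median r was 0.45 at E18.5 (12 libraries, 44 of 45 pairs positive), 0.14 in P21 midbrain (8 libraries, 27 positive) and 0.44 in P21 cortex (8 libraries, 40 positive). Over the pairs of the 3 sets together, 5 had an adjusted p under 0.05 for r (permutation test, Benjamini-Hochberg over all of them). At E18.5 these were Cx3cr1 with Csf1r (r = 0.88, rho = 0.76), Cx3cr1 with C1qa (r = 0.84, rho = 0.83), Cx3cr1 with C1qb (r = 0.80, rho = 0.78) and Csf1r with C1qb (r = 0.81, rho = 0.85), each with an adjusted permutation p of 0.043 for r and 0.12 to 0.13 for rho. In P21 midbrain it was C1qa with C1qc (r = 0.93, rho = 0.90, adjusted p = 0.044 and 0.12, exact permutation). Without the 2 libraries farthest from the median of the first gene, r was 0.77, 0.80, 0.71, 0.86 and 0.84, respectively. Libraries of 1 set share tissue, and those with the same number vary together, so they are not fully independent. At E18.5 genes of other cells also split the libraries by number, as given below. Such r values were not computed for pairs of other genes, so they do not set the members apart from genes in general.

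At E18.5 the libraries numbered 5 stood apart for these genes. Of the 10 genes, 8 had their highest E18.5 library in number 5 of either genotype, and the summed TPM of the 10 genes was 191.2 in Nova1hu/hu number 5 and 185.9 in Nova1wt/wt number 5, against 124.7 to 157.5 in the other 10 libraries. The summed perivascular and meningeal macrophage genes in these libraries, 96.8 and 106.9 TPM, were within the 72.5 to 116.0 TPM of the others. Genes of other cell types did move in them: their summed TPM was the highest of the 12 libraries for endothelial genes (261.7 and 244.2 against 183.5 to 236.4), for oligodendrocyte genes (151.5 and 163.8 against 123.9 to 144.1) and for cell division genes (414.6 and 417.6 against 360.0 to 403.5). Astrocyte genes were at 1037 and 1140 TPM against 766.2 to 1047, and neuron genes at 4414 and 4579 TPM against 4542 to 4956. For some lists the libraries of both genotypes split by number, 3, 5 and 6 against 1, 2 and 4. Erythroid genes were at 1350 to 2191 TPM against 2575 to 3607, and astrocyte genes at 948.3 to 1140 against 766.2 to 906.3. The sums of neuron, endothelial, oligodendrocyte and cell division genes overlapped in this split. So did those of the 10 genes, at 144.1 to 191.2 against 124.7 to 157.5. The part of these differences in the member levels was not tested. Without both libraries numbered 5 all 10 genes were still called higher at P21, with log2 fold changes from 0.60 to 3.13. The Lyz2 genotype difference at E18.5 was then 0.38 (unadjusted p = 0.013 by edgeR).

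As a description, the genes most like a member were taken by Pearson's r of log2 CPM deviations from the group means over 28 libraries. For Cx3cr1 the closest gene of all was the member Csf1r (0.88), and the closest others were Lgals3bp (0.85), Unc93b1 (0.83), Epb41l2 (0.83), Tmbim6 (0.81) and Dact3 (0.81). For C1qa they were Olfml3 (0.78), which is among the homeostatic microglia genes below, Cspg4 (0.74), Jdp2 (0.74), Unc93b1 (0.74) and 1700008O03Rik (0.74), and C1qc ranked between them (0.74). For Lyz2 they were Nphs1 (0.74), Iqch (0.73), Zfp385c (0.72), Evc (0.69) and Pygm (0.69), while its r with the other members was 0.14 to 0.52. These points share libraries and depth.

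Other genes of microglia were counted from fixed lists, beside the members. Of all 16805 genes tested, 42.6% were called higher and 42.4% lower with age, and 35.4% were called higher in cortex and 35.9% in midbrain; no list was tested against these shares. Of 20 other homeostatic microglia genes, 19 rose with age and 1, the TGF-beta receptor gene Tgfbr1, fell (median log2 fold change 1.29), and 15 were higher in cortex and 2, Sall1 and Lpcat2, in midbrain. The largest changes with age were those of Selplg (4.09), a ligand of selectins, Itgam (3.02), the complement receptor chain CD11b, and Siglech (2.85), and the largest regional ones, cortex against midbrain, were those of Ltc4s (1.04), Crybb1 (1.01) and P2ry13 (1.0). Of 17 myeloid transcription factor and signalling genes tested, 15 rose with age and 1 fell (median 0.85), and 12 were higher in cortex and 0 in midbrain. Spi1, which encodes PU.1, rose by 1.23 and was 0.55 higher in cortex, and Tyrobp rose by 1.34 and was 0.80 higher in cortex.

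**Figure D5:**
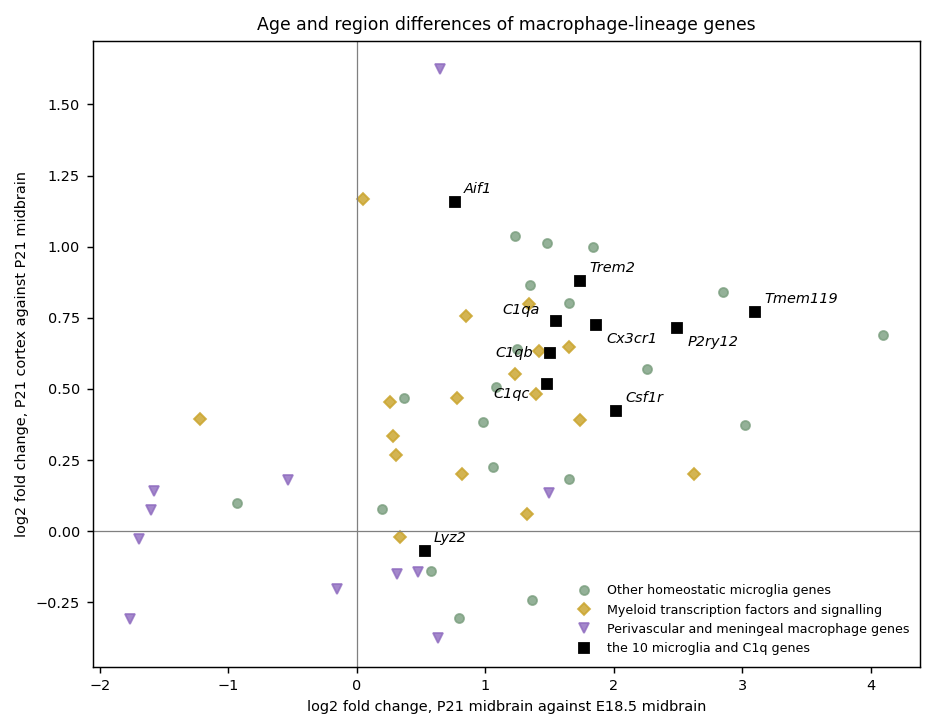
Log2 fold change with age (horizontal) against that between P21 cortex and P21 midbrain (vertical) for the 10 genes (black squares, named) and for 3 lists of macrophage-lineage genes. The 9 members other than Lyz2 lie in the upper right with most homeostatic genes, and Mrc1, Pf4 and F13a1 of the perivascular and meningeal list lie on the left, between −1.76 and −1.60.

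Genes of other macrophages and of myeloid blood cells were counted in the same way. Of 11 perivascular and meningeal macrophage genes tested, 2 rose, Cd163 and Cbr2, and 5 fell (median −0.16), and the names outside the rule for named genes, here and for the other lists, were added after their values were seen. F13a1, a transglutaminase, changed by −1.76, Mrc1, the mannose receptor, by −1.70 and Pf4 by −1.60. Of 8 monocyte and granulocyte genes tested, 1 rose, Lcn2, and 2 fell, Plac8 and Prtn3. Of 8 class II antigen presentation genes, 6 rose, led by Cd74 (3.61) and H2-Aa (3.16), and 2 fell, Ciita and H2-DMa. All 12 cell division genes fell (median −3.16). Of the 16 phagocytic and activated microglia genes tested, 11 rose with age and 4 fell, Igf1, Lpl, Lgals3 and Fabp5. Between regions 3 of the 16 were higher in cortex, Lpl, Cd68 and Ctsz, and 9 in midbrain, with Spp1, the secreted protein osteopontin, −3.55 in cortex against midbrain. Spp1, like several genes of this list, is also made by other brain cells.

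Ligands and complement partners of the members varied by gene. Of 11 genes tested from a list of ligands, which also held the receptor genes Sirpa and Cd200r1, 8 rose with age and 2 fell. Clu, a secreted chaperone, changed most (2.79), and Cd200 fell (−1.1). Csf1 and Il34, the ligands of CSF1R, rose by 1.79 and 2.60, but Csf1 was higher in midbrain, by 1.1, and Il34 higher in cortex, by 1.84. Cx3cl1, the ligand of CX3CR1, rose by 2.45 from a mean of 59.1 TPM to 278.8 TPM in midbrain and reached 751.3 TPM in cortex, 1.51 higher on the log2 scale. Apoe, a lipid carrier that TREM2 can bind, rose by 2.31. Of 35 genes tested from a complement list beyond C1q, 13 rose with age and 18 fell (median −0.26). Between regions 10 were higher in cortex and 17 in midbrain. Of all genes 42.6% and 42.4% were called higher and lower with age, and 35.4% and 35.9% higher in cortex and in midbrain. The list also held genes outside the complement cascade, among them C1ql1 to C1ql4, Lrp1 and Megf10. Of these, C1ql3 was higher in cortex and the others were higher in midbrain. C4b, which is cleaved downstream of C1q, rose by 4.93 from a mean of 0.808 TPM to 21.7 TPM, C3 was at 2.91 and 2.71 TPM and was not called with age, and Srpx2, which can bind C1q, rose by 1.73. In cortex against midbrain, C3 had a log2 fold change of −1.99 and C4b of −0.56.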

How the data were processed

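PolyA-selected RNA of midbrain and cortex was sequenced from 28 libraries. The authors aligned reads with OLego and counted genes with Quantas on mm10 (GRCm38), with the annotation version and strand setting not given in the sources used here. They deposited, per gene, expected counts (751 to 2715 genes per library not whole), exon length and RPKM, which is the count per exon length and library total. Library totals were 18550922 to 45134998, and counts of a member in 1 library went down to 12 (Aif1), 23 (Tmem119) and 24 (Trem2), all at E18.5.

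Expected counts were rounded and fitted in R 4.3.3 with edgeR 4.0.16 (filterByExpr, TMM, quasi-likelihood test). Genotypes were compared within an age and region, and age, region and interactions in 1 fit of the 28 libraries. A call needed p under 0.05 and Benjamini-Hochberg adjusted p under 0.1 over all genes tested. TPM was computed from counts and exon lengths. Ratios and single genes were tested by two-sided exact permutation of libraries on log2 values, with ratio tests called at adjusted p under 0.05. Scripts used Python 3.11.15, numpy 2.4.6, pandas 2.3.3, scipy 1.17.1 and matplotlib 3.10.9, and were tested on simulated data. Alternatives were DESeq2 1.42.0, the likelihood ratio test, other scaling and filters, 1 genotype alone, a replicate block and each library left out. Same-numbered libraries of the 2 genotypes deviated together in each set (r = 0.41 to 0.63, 0.40 to 0.47 and 0.35 to 0.44 at E18.5, in P21 cortex and in P21 midbrain). The label numbers were therefore taken to pair them, but among the tests only the replicate-block alternatives of the genotype fits used this pairing. In the fit of the 28 libraries the block was shared across ages and regions. The main edgeR fits and the permutation tests treated libraries as unpaired.

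The members and lists were chosen with earlier results of these data known. Named from the lists were any gene called between genotypes, genes among the 3 largest changes of a list with age or region, list members that went against their list, and the partners Csf1, Il34, Cx3cl1, Tyrobp, Apoe, Srpx2, C3, C4b, Spi1 and Lyz1. Some genes that this rule names are not reported here. Likeness used the 5 genes with the highest r. Positions and promoter sequences are from RefSeq on GRCm38, which held 22959 of the 23038 genes.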

Additional observations from a re-analysis of the deposited data

Results flagged for a closer look

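In 6 of the 60 sets of 4 or 6 libraries examined, 1 library lay far from the rest for a member, where chance alone sets apart about 1 in 20. In E18.5 midbrain, Nova1hu/hu number 5 was high for Lyz2, at 18.66 TPM against 11.1 to 13.4 in its group, and for Trem2, at 10.47 TPM against 4.5 to 6.64. Nova1wt/wt number 1 of the same age was low for Lyz2, at 7.099 TPM against 9.91 to 11.2. Without Nova1hu/hu number 5 the Lyz2 log2 fold change between genotypes was 0.35, and without Nova1wt/wt number 1 it was 0.38, against 0.45 with all libraries. In P21 midbrain, Nova1wt/wt number 1 was low for Csf1r, at 75.04 TPM against 77.0 to 77.3. In P21 cortex, Nova1hu/hu number 1 was low for P2ry12, at 35.14 TPM against 38.6 to 39.0, and Nova1wt/wt number 3 was low for C1qc, at 90.43 TPM against 105.8 to 108.2.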

How the results depend on the processing

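The numbers of members called, 0 for each genotype and interaction comparison, 10 with age (8 at least 2-fold) and 9 between regions, were the same under each alternative run and with any 1 library left out. With the replicate number as a block they were again 0, 10, 8 and 9, and no member's call changed. This block paired the genotypes only in the genotype fits within a set. For age, region and interactions each number had a term shared by all ages and regions. Those calls were therefore not tested again with the pairing within sets. Chain ratios past the threshold numbered 3 of 6, 0 in either genotype alone and 1 to 3 with 1 library left out. These 3 are linked, since each chain ratio follows from the others. With 4 against 4 libraries the smallest exact permutation p is 0.029, so a lone ratio could not pass after adjustment, and the C1qa to C1qc difference between regions was 0.22 in Nova1wt/wt and 0.21 in Nova1hu/hu. Ratios to Cx3cr1 past the threshold numbered 12 of 18, and 5 in Nova1wt/wt and 3 in Nova1hu/hu with their fewer libraries. Small log2 values that missed the threshold changed sign. For P2ry12 at E18.5 the genotype value was −0.0039 with all 28 libraries in one fit, and for Aif1 it was 0.017 with library totals and 0.061 without both number 5 libraries. The age value of C1qc to C1qb was 0.037 in Nova1hu/hu, and the region values of P2ry12 and Tmem119 to Cx3cr1 were 0.012 and −0.049 in Nova1wt/wt. The cause was not tested. With 1 library left out, genotype values at E18.5 ran from −0.077 to 0.15 for Cx3cr1, −0.084 to 0.15 for P2ry12, −0.25 to 0.095 for Trem2 and −0.15 to 0.16 for Aif1. In P21 midbrain they ran from −0.064 to 0.069 for C1qa, −0.12 to 0.0023 for C1qb, −0.013 to 0.12 for C1qc and −0.0082 to 0.13 for Lyz2, and in cortex from −0.065 to 0.048 for C1qa and −0.014 to 0.22 for Lyz2. Ratio differences ran from −0.047 to 0.0079 for C1qc to C1qb with age, and from −0.040 to 0.017 for P2ry12 and −0.037 to 0.042 for C1qa to Cx3cr1 between regions.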
